A study of Homo sapiens with 6 samples.

Results

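The genes described here are 81 ribosomal protein pseudogenes with reads in HCT116 cells. They were chosen by symbol, type and level. The symbol had to be that of a ribosomal protein gene followed by P and a number, the biotype processed pseudogene or transcribed processed pseudogene, and the raw counts had to sum to at least 60 over the 6 libraries. Of the 62710 genes of the deposited table, 1388 met the first conditions. Of these 1388, 718 had 0 counts in every library and 670 had at least 1. The 81 chosen ones held 95.2% of the counts of all 1388. The level is part of the rule, so that these genes have reads is no finding. The difference between groups was not used to choose them, but 3 members had under 30 counts in sh-NC and 8 had under 30 in sh-IGF2BP3, so they met the minimum mainly through the other group.

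Processed pseudogenes arise when the mRNA of a parent gene is copied back into DNA and inserted elsewhere in the genome, without introns and usually without a promoter of their own. Ribosomal protein genes encode the proteins of the small (40S) and large (60S) ribosomal subunits and are among the most strongly expressed genes of any cell, and their mRNAs have left more processed pseudogenes than most gene families. A young copy can be nearly identical to the mRNA of its parent over long stretches, so a short read may fit both places.

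The libraries were made from total RNA of HCT116, a human colon cancer cell line. Of the 6 libraries, 3 (sh-NC) came from cells infected with a lentivirus carrying a scrambled control sequence and 3 (sh-IGF2BP3) from cells infected with a lentivirus carrying 1 shRNA against IGF2BP3, an RNA-binding protein that binds and stabilises mRNAs. Both were selected with puromycin as stable lines. The comparison asks what differs in the RNA of the cells when IGF2BP3 is knocked down with this shRNA. No label says whether the libraries of a group came from separate cultures, so p-values measure the spread between these libraries, which may be technical.

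Differences between a pseudogene and its parent are visible in the sequences. Each set below shows the same 30 coding bases of a parent mRNA and of its pseudogenes, 5′ to 3′ on the transcribed strand, as annotated in GENCODE 29 on GRCh38, with capitals at bases that differ from the parent. Except for RPS28, where the first bases are shown, each window was chosen where the copies compared differed most from the parent. The windows are therefore not typical of the whole copy. Over the aligned length, RPS2P5 was 98.7% identical to RPS2 and RPL28P2 74.3% identical to RPL28. The pseudogenes of RPS2, a 40S protein, are shown because RPS2P5 and RPS2P46 are 2 of the 5 most abundant members yet differed in their pattern over the libraries. The window is bases 24 to 53 of the RPS2 coding sequence, at chr12:118246107-118246136 on the plus strand for RPS2P5 and chr17:19446800-19446829 on the minus strand for RPS2P46.
RPS2: gggggggcccgggggccctggtggccctgg
RPS2P5: gggggggcAcggAggccctggtggccctgg
RPS2P46: gggggggcccggAggccctggtggccctgA
RPS28P7 and RPL36AP37 are shown because they had more counts than their parents, and their windows hold no difference at all. RPS28 encodes a 40S protein, and bases 1 to 30 of its coding sequence lie at chr11:82689559-82689588 on the plus strand in RPS28P7.
RPS28: atggacaccagccgtgtgcagcctatcaag
RPS28P7: atggacaccagccgtgtgcagcctatcaag
RPL36A encodes a 60S protein. Bases 214 to 243 of its coding sequence lie at chr11:16974771-16974800 on the minus strand in RPL36AP37 and at chr15:60390575-60390604 on the plus strand in RPL36AP44, a diverged copy with 5 differences in the same 30 bases.
RPL36A: tgcgttgagcccaactgcagatctaagaga
RPL36AP37: tgcgttgagcccaactgcagatctaagaga
RPL36AP44: tgTgCtgaCcccaTctgcagatctaagaAa
RPL21P16 and RPL21P10, copies of the 60S gene RPL21, span the range from an exact to a diverged copy within 1 family. Bases 81 to 110 of RPL21 lie at chr10:120355074-120355103 and chr14:77683882-77683911, both on the minus strand.
RPL21: ggccacatatatgcgaatctataagaaagg
RPL21P16: ggccacatatatgcgaatctataagaaagg
RPL21P10: ggccaTGtatatgcgCatctGtaagaGGgA
RPL28P2 stands for the copies that share no run of 50 bases with the parent mRNA. Bases 210 to 239 of the 60S gene RPL28 lie at chr2:231789648-231789677 on the minus strand in RPL28P2, with 10 differences.
RPL28: gcggaagcctgccacctcctatgtgcggac
RPL28P2: AcAAaagcAAAccacctcctatAtgcAAaT

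Aligned to the parent mRNA, the 81 pseudogenes were 64.6% to 100% identical over the part that aligned, with a median of 97.2%. That part was 100% of RPS2P5 but only 24.9% of RPS10P7 and 25.0% of RPL23AP7. An identity of at least 99% was found for 17 of them and one under 90% for 19, and 73 covered at least 95% of the parent's coding sequence. To measure how much of a pseudogene a read could not tell from its parent, every run of 50 bases was looked up in all transcripts of the parent. At least 50% of the runs occurred there for 27 pseudogenes (high sharing), some but under 50% for 35 (partial sharing) and 0 for 19 (no sharing). Every 50-base run occurred in some other gene for 5 pseudogenes, RPS28P7, RPL36AP37, RPL39P3, RPL21P16 and RPL41P1, each 100% identical to its parent's coding sequence. The high-sharing copies held 79.2% of all member counts, the partial-sharing copies 16.2% and the no-sharing copies 4.55%. The treatment of reads with several matches is not given in the sources used here, so for the high-sharing copies a count cannot be assigned to 1 place with certainty. The classes count only runs shared with the parent in the symbol, and the same limit holds for some copies of the other classes. Of the 50-base runs of the partial-sharing RPL23AP7, 70.9% occurred in some other gene. Among the no-sharing copies it was 77.6% for RPL7AP45 and 0% for RPL28P2.

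The libraries held 16146718 to 23576469 counts. The colon cancer cell label fits the marker genes in part: of 6 epithelial genes, EPCAM, CDH1, KRT8, KRT18 and CLDN7 had reads in all libraries, while VIL1 had 0 to 3 counts. Of 7 markers of blood, endothelial, fibroblast and liver cells, COL1A1 made up most of the summed 29.7 to 59.8 CPM (counts scaled to library size after TMM normalization), COL1A2 was at 0 in every library and PTPRC had at most 1 count. The targeted gene IGF2BP3 had 90.3, 84.1, 70.3 CPM in sh-NC against 60.2, 52.3, 55.8 CPM in sh-IGF2BP3, a log2 fold change of -0.54 (SE 0.18, n = 3 per group, adjusted p = 0.126 in edgeR), so the groups did not overlap and sh-IGF2BP3 was lower, while the adjusted p missed 0.05. The 18 alternatives gave log2 fold changes of -0.66 to -0.21 and adjusted p of 0.0829 to 0.849, with the log2 fold change nearest 0 once GC content and length trends were removed. Libraries did not sort cleanly by group: of the 15 pairs, the closest was sh-NC 1 with sh-IGF2BP3 3 (chi-square per degree of freedom 9.13, against 16.6 to 52.3 within groups). All replicates differed by more than counting noise. Results are therefore also given without these 2 libraries.

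Together the 81 pseudogenes had 105580 counts. RPS2P5 alone held 22.0% of them, the 5 most abundant 51.7% and the 10 most abundant 69.9%. At least 1000 counts were reached by 20 members, while 40 had under 200. Of the 81, 21 are copies of 40S genes and 60 of 60S genes, from 42 parents, 19 of which had 1 expressed copy. RPL7A had the most, 5, followed by RPL7 with 4. At the threshold, RPS15AP10 with 60 counts and RPL26P29 with 61 were just inside, and RPL12P4 and RPSAP12 with 58 each were just outside. The copies were on 22 chromosomes, and 4 shared the chromosome of their parent.

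The members' summed counts took 0.0914%, 0.0882%, 0.0817% of sh-NC 1 to 3 and 0.112%, 0.115%, 0.0837% of sh-IGF2BP3 1 to 3. The ribosomal protein genes themselves, 79 genes, took 3.13%, 2.93% and 2.80% against 4.11%, 4.46% and 2.95%. Both shares were high in sh-IGF2BP3 1 and 2, and sh-IGF2BP3 3 lay near the sh-NC libraries. Per 1000 counts of their 42 parents, the pseudogenes had 43.3, 44.6, 42.9 counts in sh-NC against 41.5, 40.5, 42.1 in sh-IGF2BP3. All 6 ratios lay between 40.5 and 44.6, and the highest sh-IGF2BP3 value was below the lowest sh-NC value. As in any bulk sample, fewer cells of a kind and less RNA per cell cannot be told apart.

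**Figure D1:**
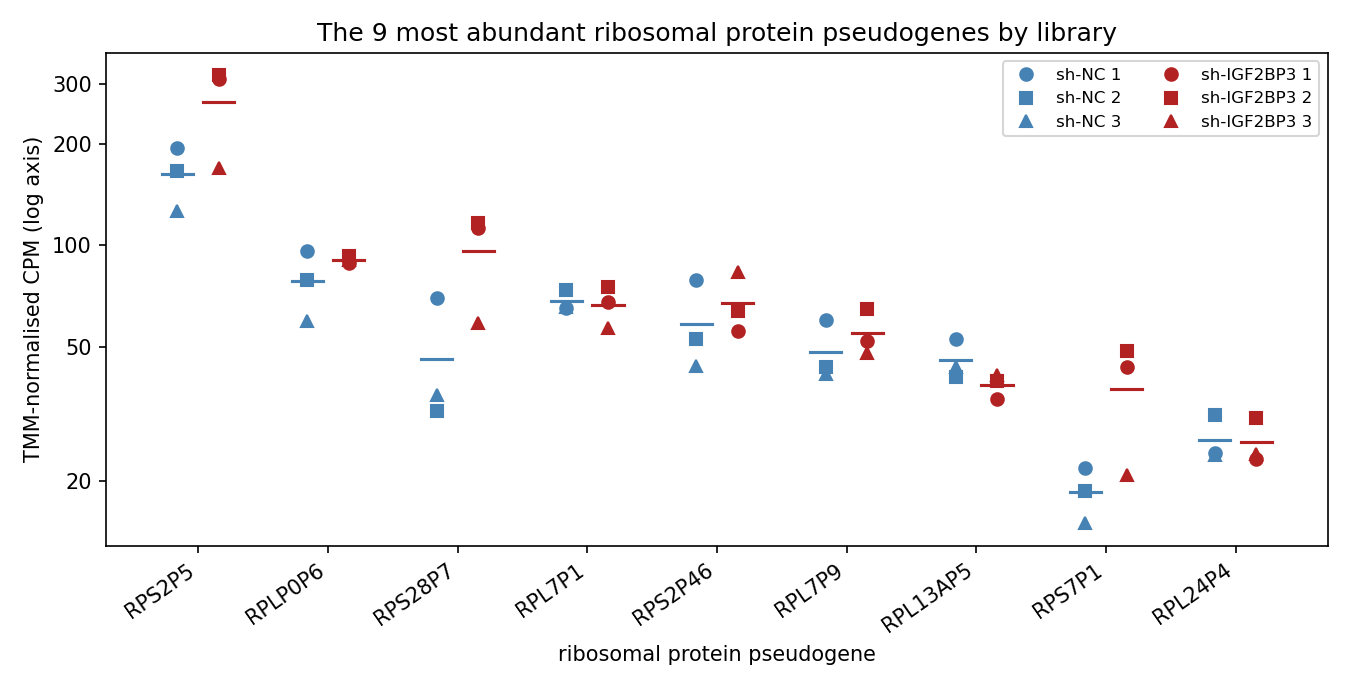
TMM-normalised CPM on a log axis of the 9 pseudogenes with the highest mean, with 1 point per library (blue sh-NC, red sh-IGF2BP3, the shape giving the replicate number) and bars for group means. RPS2P5, RPS28P7 and RPS7P1 had their highest values in sh-IGF2BP3 1 and 2, while RPS2P46 was highest in sh-NC 1 and sh-IGF2BP3 3.

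Of the 81 pseudogenes, 80 passed the filter on low counts and were tested in edgeR together with all genes. RPL7P50, with 6, 22, 43 counts in sh-NC against 6, 3, 1 counts in sh-IGF2BP3, did not. No member was called (fold change over 1.5, adjusted p under 0.05 over all genes), as for all 16753 genes tested, of which 0.0% were called in either direction, and the lowest adjusted p of a member was 0.103. At an unadjusted p under 0.05, 10 members were higher in sh-IGF2BP3 and 6 lower, or 12.5% and 7.5%, against 13.6% and 8.54% of all genes. With trends with GC content and gene length removed, 9 were higher and 9 lower of 80, against 6.86% and 3.59% of all genes. DESeq2, which gave an adjusted p for 39 of the members, called 3 higher (RPS28P7, RPS7P1 and RPL21P16) and 0 lower, against 4.29% and 1.05% of all 13087 genes it tested. Without the filter on low counts, edgeR called 5 higher and 1 lower, against 1.89% and 0.413% of 36335 genes. The lower one was RPL7P50, 1 of the 8 members with under 30 counts in sh-IGF2BP3, which met the minimum mainly through sh-NC, so its direction is not independent of the rule. The members' median log2 fold change was -0.0011, with 40 above and 40 below 0 and a range of -1.33 to 1.76, and the median of all genes was -0.01.

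The parent genes lay mostly above 0. Their median log2 fold change was 0.42, 40 of 42 were above 0, and 20 were higher at an unadjusted p under 0.05 and 0 lower. Among all 79 ribosomal protein genes the median was 0.54, with 77 above 0. Of the 79, 0 passed the adjusted threshold in edgeR, 47 were higher at an unadjusted p under 0.05, and DESeq2 called 12 higher and 0 lower. Among 462 tested processed pseudogenes of other genes, the median was -0.14, with 183 above 0 and 279 below.

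Each pseudogene was then set against its own parent. The difference between member and parent had a median of -0.46, with 63 of 80 below the parent and 17 above. That is 78.8%, close to the 77.2% of all genes tested that had a log2 fold change below the parent's (averaged over the 80 pairs), so the count says little about pseudogenes in particular. A gene at the median of all genes would lie -0.43 from the median of the parents over these pairs. Among the 70 members with at least 30 counts in each group, 56 were below the parent, against 77.7% of all genes. With single libraries left out the median difference from the parent ran from -0.28 (without sh-IGF2BP3 2) to -0.64 (without sh-IGF2BP3 3). With all libraries, it was near 0 in the high-sharing copies (median -0.11, 19 of 27 below the parent) and further below 0 in the partial-sharing copies (median -0.61, 28 of 34 below) and the no-sharing copies (median -0.65, 16 of 19 below). The members' own median log2 fold changes in these classes were 0.20, -0.11 and -0.19, while those of their parents were 0.34, 0.47 and 0.54. The shares below the parent were 70.4%, 82.4% and 84.2%, against 77.0%, 75.4% and 80.8% of all genes for the same parents, for which a gene at the median of all genes would lie -0.36, -0.44 and -0.55 from the parents' median. The high-sharing copies thus had values closest to those of their parents, and the medians of the copies with less sharing lay below 0. The size of these values moved with single libraries left out. Without sh-IGF2BP3 3 the members' medians were 0.37, -0.23 and -0.46, and the median differences from the parent were -0.15, -0.77 and -1.17. Without sh-IGF2BP3 2 the differences were -0.11, -0.46 and -0.44. Without sh-NC 2 that of the high-sharing copies was -0.05. With each library left out in turn, the difference stayed closest to 0 in the high-sharing copies. The classes also differ in depth. Members with at least 1000 counts had a median difference from the parent of -0.11 (n = 20) and those with fewer a median of -0.54 (n = 60). The difference between the classes was not tested, and neither was the part of depth or of shared reads in it.

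**Figure D2:**
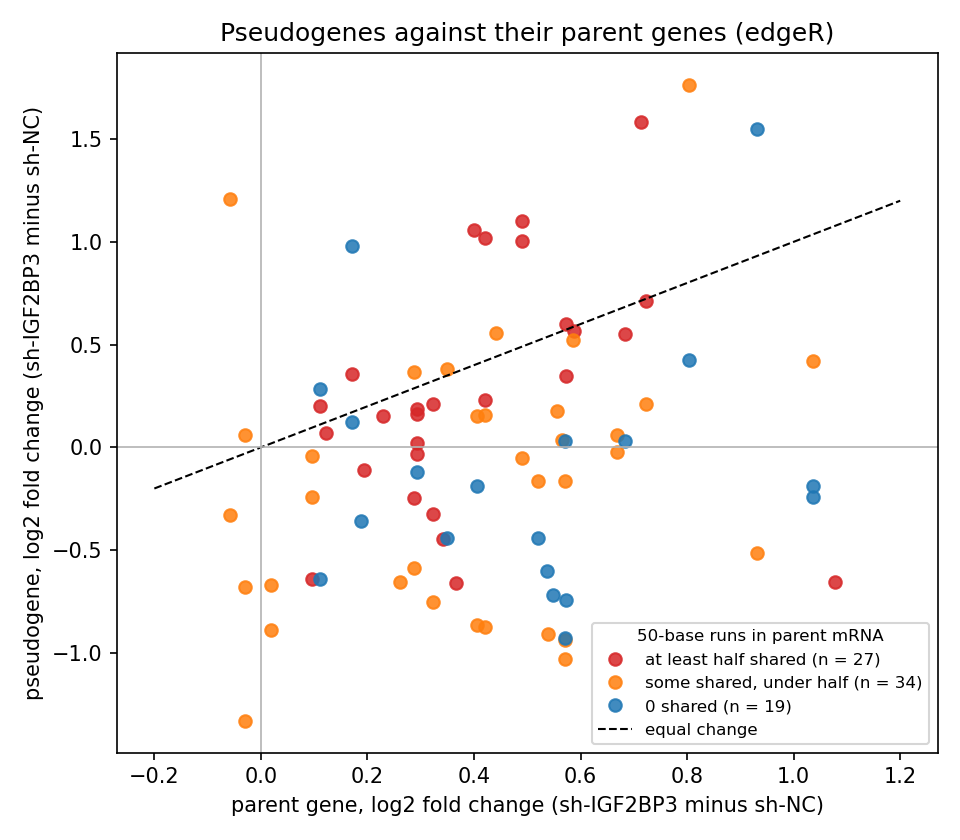
Log2 fold change (sh-IGF2BP3 minus sh-NC, edgeR) of each of the 80 tested pseudogenes against that of its parent gene, coloured by the share of 50-base runs found in the parent mRNA, with a dashed line at equal change. Parents of 1 family share an x value, and 63 of the 80 points lie below the line, a share close to that of all genes.

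**Figure D3:**
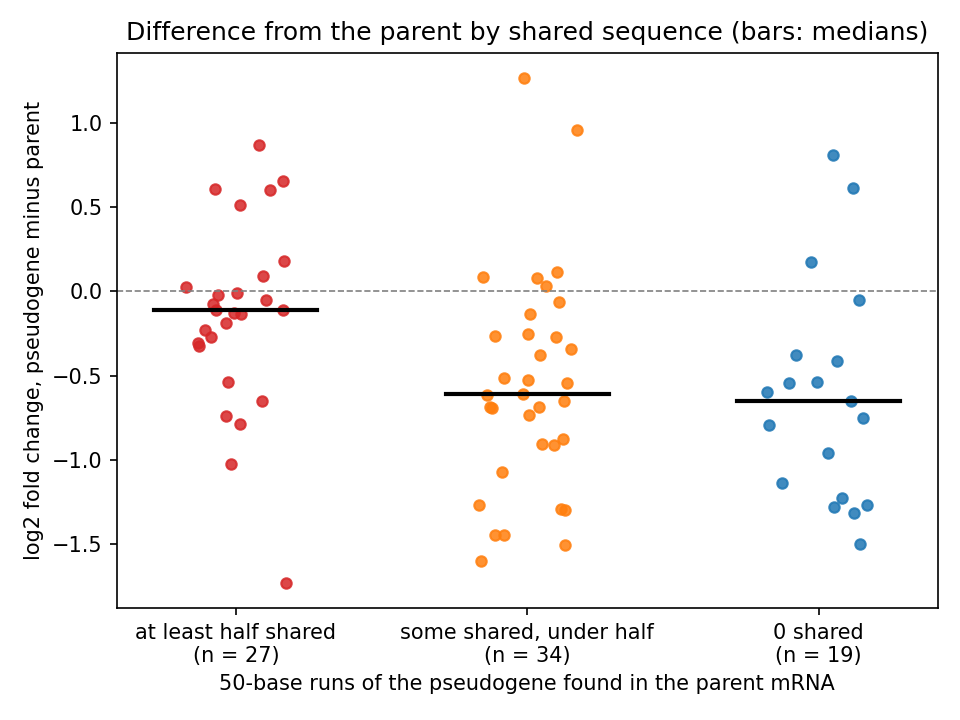
Log2 fold change of the pseudogene minus that of its parent in the 3 sharing classes, with 1 point per pseudogene and a bar at the median. The medians are -0.11 with high sharing, -0.61 with partial sharing and -0.65 with no sharing.

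The classes were also compared library by library. As the median deviation of log2 CPM from each gene's mean over the 6 libraries, the parents were at -0.04, -0.20, -0.34 in sh-NC 1 to 3, against 0.30, 0.49, -0.15 in sh-IGF2BP3 1 to 3. The high-sharing copies were at -0.09, -0.03, -0.18 against 0.04, 0.34, -0.21. The partial-sharing copies were at 0.01, 0.18, 0.03 against -0.08, 0.07, -0.13, which did not follow the parents or mirror them. The no-sharing copies were at 0.15, -0.02, 0.09 against -0.17, -0.26, 0.19, so they were lowest in the libraries where the parents were highest. In sh-IGF2BP3 3 the parents, the high-sharing and the no-sharing copies lay closer to sh-NC 1 than to sh-IGF2BP3 2.

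**Figure D4:**
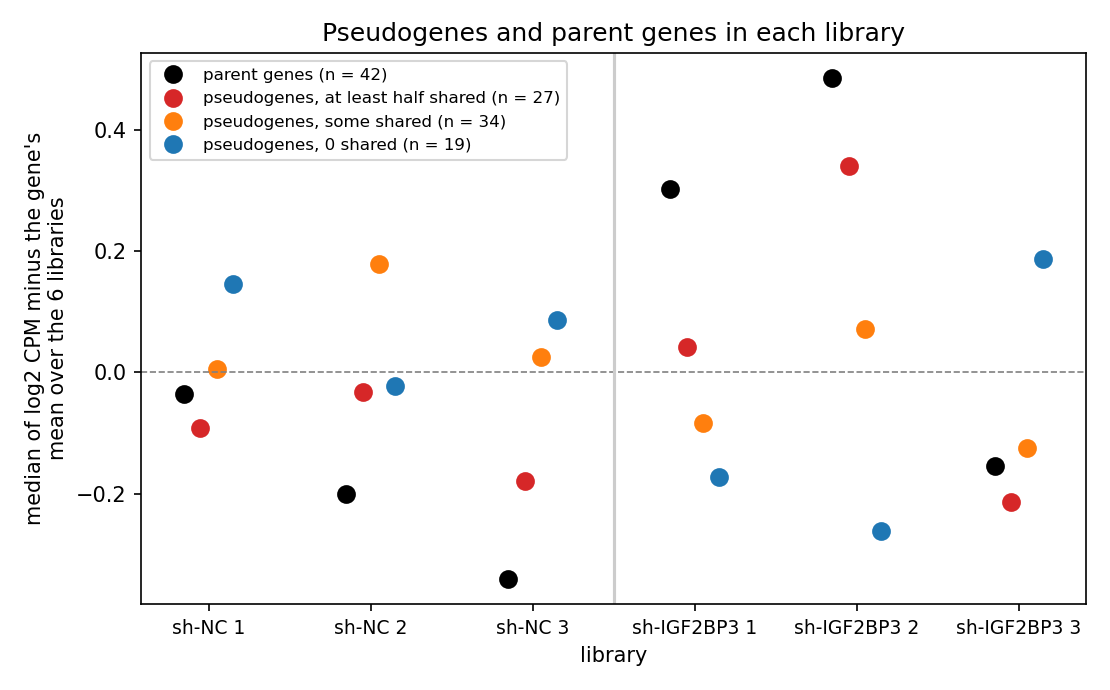
Median over genes of log2 CPM minus the gene's mean over the 6 libraries, for the 42 parents and the tested pseudogenes of each sharing class. The parents and the high-sharing copies are highest in sh-IGF2BP3 2, where the no-sharing copies are lowest and the partial-sharing copies are not.

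Without sh-NC 1 and sh-IGF2BP3 3, a choice made after the closeness of these libraries was seen, edgeR called 11 members higher and 6 lower, against 14.6% and 8.42% of all 17073 genes tested. The members are 78 tested ones, so 14.1% were called higher and 7.69% lower, close to the background. Those called higher include RPS15AP30 and RPL21P75, and those called lower RPL7P50, which met the minimum of 60 counts mainly through the group where they are high. The median difference from the parent was then -0.70, with 61 of 78 below. In this setting the median log2 fold change was 0.65 for the parents and -0.02 for all genes. A gene at the median of all genes thus also lay below the parents' median. By class the median difference from the parent was -0.14, -0.90 and -1.10 from high to no sharing. Of the 27 high-sharing copies tested, 9 were called higher and 3 lower. Of the 34 partial-sharing copies 1 was called higher and 1 lower, and of the 17 no-sharing copies 1 and 2. The background for each is the 14.6% and 8.42% of all genes. RPL21P75 is among the high-sharing copies called higher, and its direction is not independent of the rule. Leaving out sh-NC 1 alone gave 7 members called higher and 3 lower (background 10% and 5.67%), and leaving out sh-IGF2BP3 3 alone gave 2 and 0 (background 1.23% and 0.0805%).

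Among the 21 copies of 40S genes, all tested, the median log2 fold change was 0.04, and 17 had a value below that of the parent. Averaged over all 80 pairs, 77.2% of all genes tested lay below the parent, so this count says little about these copies. RPS2P5 (chr12:118246084-118246962, plus strand) was the most abundant pseudogene, with 194, 166, 127 CPM in sh-NC 1 to 3 against 309.9, 319, 169 CPM in sh-IGF2BP3 1 to 3. All sh-IGF2BP3 values but that of sh-IGF2BP3 3 exceeded every sh-NC value. It had a log2 fold change of 0.71 (SE 0.24, n = 3 per group, adjusted p = 0.130 in edgeR). RPS2, its parent, had 1527, 1181, 954 CPM in sh-NC against 2403, 2166, 1474 CPM in sh-IGF2BP3 and a log2 fold change of 0.72 (adjusted p = 0.123 in edgeR). Per 1000 RPS2 counts, RPS2P5 had 127, 141, 133 in sh-NC against 129, 147, 115 in sh-IGF2BP3, without a separation of the groups. It lies within TAOK3 on the opposite strand, and TAOK3, a protein kinase gene, had 28.1, 30.4, 32.1 CPM in sh-NC against 20.01, 16.7, 20.96 CPM in sh-IGF2BP3, with a log2 fold change of -0.65, opposite in sign. Once trends with GC content and gene length were removed, the log2 fold change of RPS2P5 was 0.21. Without sh-NC 1, RPS2P5 was called (log2 fold change 0.86, adjusted p = 0.0259; log2 fold changes of 0.20 to 1.11 and adjusted p of 0.00114 to 0.871 over the 18 alternatives).

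RPS2P46 (chr17:19445970-19446852, minus strand), the other copy of RPS2, had 78.8, 52.9, 43.9 CPM in sh-NC 1 to 3 against 55.7, 63.8, 83.4 CPM in sh-IGF2BP3 1 to 3. The highest values were those of sh-NC 1 and sh-IGF2BP3 3, the 2 libraries that are also closest over all genes, and the groups overlapped. It had a log2 fold change of 0.21 (SE 0.23, n = 3 per group, adjusted p = 0.613 in edgeR), 0.51 below that of RPS2 on the log2 scale. Over the 18 alternatives the log2 fold change of RPS2P46 ran from -0.23 to 0.49, and turned negative once trends with GC content and gene length were removed. In the RPS2 mRNA occur 48.6% of its 50-base runs, against 57.1% of those of RPS2P5. It lies in an intron of a same-strand gene known only by its identifier (ENSG00000235979), which had 0 to 0.511 CPM.

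RPS28P7 (chr11:82689559-82689768, plus strand) had 69.9, 32.4, 36.02 CPM in sh-NC 1 to 3 against 113, 117, 58.7 CPM in sh-IGF2BP3 1 to 3. Only the value of sh-NC 1 lay within the range of the sh-IGF2BP3 libraries, giving a log2 fold change of 1.06 (SE 0.29, n = 3 per group, adjusted p = 0.103 in edgeR) and, with RPS7P1, the lowest adjusted p of the members. RPS28 had 577, 906, 604 counts in sh-NC against 895, 791, 534 counts in sh-IGF2BP3, so the pseudogene had more counts than its parent in total, and its FPKM (counts scaled to gene length and library size) averaged 1817% of that of RPS28. RPS28 had a log2 fold change of 0.40, which turned negative when the trends with GC content and gene length were removed. RPS28P7 encodes the same 69 amino acids as RPS28. Without sh-NC 1 its log2 fold change was 1.49 (adjusted p = 0.00193 in edgeR; log2 fold changes of 0.72 to 1.76 and adjusted p of 8.37e-06 to 0.569 over the 18 alternatives), and DESeq2 called it.

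RPS7P1 (chr17:28467822-28468406, plus strand), a copy of the 40S gene RPS7, had 21.9, 18.7, 15.02 CPM in sh-NC 1 to 3 against 43.6, 48.5, 20.8 CPM in sh-IGF2BP3 1 to 3. The values of sh-IGF2BP3 1 and 2 were over those of the other 4 libraries, and sh-IGF2BP3 3 lay just under sh-NC 1. It had a log2 fold change of 1.02 (SE 0.28, n = 3 per group, adjusted p = 0.103 in edgeR), against 0.42 for RPS7. Its mean FPKM was 89.2% of that of RPS7. Without sh-NC 1 or without sh-IGF2BP3 3 it was called (log2 fold changes 1.16 and 1.29, adjusted p = 0.0114 and 0.0320; log2 fold changes of 0.80 to 1.46 and adjusted p of 0.000166 to 0.460 over the 18 alternatives). The other copies of RPS7, named after their values were seen, had smaller or negative values. RPS7P11 had a log2 fold change of 0.23 and RPS7P10 one of -0.87.

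RPS15AP30 (chr10:112987476-112987865, plus strand) had 10, 5, 3 counts in sh-NC against 23, 10, 12 counts in sh-IGF2BP3, and was 1 of 2 members whose sh-IGF2BP3 libraries were all above the sh-NC libraries in CPM. It lies in an intron of TCF7L2, a transcription factor gene read from the same strand, which had 313, 291, 274 CPM in sh-NC against 287, 269, 314 CPM in sh-IGF2BP3. With a log2 fold change of 1.55 (SE 0.58, n = 3 per group, adjusted p = 0.151 in edgeR), it was above the -0.01 of TCF7L2 and nearer to the 0.93 of its parent RPS15A, a 40S gene. It shares no 50-base run with the RPS15A mRNA. It is 1 of the 3 members with under 30 counts in sh-NC and met the minimum of 60 counts mainly through sh-IGF2BP3, so its higher values there are not independent of the rule and are given as a description. RPS15AP10, the member at the threshold of 60 counts, had a log2 fold change of -0.52, and is 1 of the 8 members with under 30 counts in sh-IGF2BP3, so its direction is likewise not independent of the rule. Without sh-NC 1, RPS15AP30 was called (log2 fold change 2.25, adjusted p = 0.0334; log2 fold changes of 0.84 to 2.42 and adjusted p of 0.0142 to 0.577 over 17 alternatives).

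RPS10P3 (chr9:88016300-88016793, plus strand) had 25, 61, 35 counts in sh-NC against 16, 17, 19 counts in sh-IGF2BP3, and no sh-IGF2BP3 library reached the lowest sh-NC library in CPM. It had a log2 fold change of -0.89 (SE 0.40, n = 3 per group, adjusted p = 0.213 in edgeR). Its parent by symbol, RPS10, a 40S gene, had only 4.18, 3.97, 4.04 CPM in sh-NC against 4.46, 3.14, 4.71 CPM in sh-IGF2BP3 in these tables, and RPS10P3 stood at 171% of the FPKM of RPS10. RPSAP52 (chr12:65758020-65826997, minus strand), named after its values were seen, lies opposite HMGA2, which encodes a chromatin protein of embryonic and cancer cells. It shares no 50-base run with the RPSA mRNA and had 27.8, 17.1, 12.9 CPM in sh-NC 1 to 3 against 12.98, 15.6, 21.98 CPM in sh-IGF2BP3 1 to 3. As for RPS2P46, its highest values were in sh-NC 1 and sh-IGF2BP3 3, and its log2 fold change was -0.19, with -0.21 for HMGA2 and 0.41 for RPSA.

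Among the 60 copies of 60S genes, 59 were tested, with a median log2 fold change of -0.03, and 46 had a value below that of the parent. The share of all genes tested below the parent was 77.2%, averaged over all 80 pairs. RPL13P12 (chr17:17383377-17384012, minus strand), a copy of RPL13, had the largest log2 fold change of the tested members. It had 9.88, 1.78, 2.71 CPM in sh-NC 1 to 3 against 22.5, 18.2, 7.55 CPM in sh-IGF2BP3 1 to 3. Within sh-NC, the first library had over 3 times the value of either other one, and it exceeded sh-IGF2BP3 3. The result was a log2 fold change of 1.76 (SE 0.51, n = 3 per group, adjusted p = 0.108 in edgeR), against 0.80 for RPL13. Per 1000 RPL13 counts it had 17.9, 3.62, 6.52 in sh-NC against 22.2, 18.4, 13.9 in sh-IGF2BP3. Without sh-NC 1 the log2 fold change was 2.85 (adjusted p = 0.00128 in edgeR; log2 fold changes of 1.32 to 3.21 and adjusted p of 6.56e-07 to 0.456 over the 18 alternatives).

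RPL41P1 (chr20:21755270-21755350, plus strand) had 17, 7, 11 counts in sh-NC against 37, 33, 19 counts in sh-IGF2BP3. Its sh-IGF2BP3 libraries were all above the sh-NC libraries, and it alone was higher also in its ratio to the parent in every sh-IGF2BP3 library. It encodes the same 25 amino acids as RPL41, a very small basic 60S protein, and had a log2 fold change of 1.58 (SE 0.50, n = 3 per group, adjusted p = 0.119 in edgeR), against 0.71 for RPL41. Its FPKM was 3.44% of that of RPL41. Without sh-NC 1 it was called (log2 fold change 2.08, adjusted p = 0.0175; log2 fold changes of 1.21 to 2.35 and adjusted p of 0.00369 to 0.554 over 17 alternatives).

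RPL21P16 (chr10:120354701-120355183, minus strand) had 9.93, 6.82, 6.23 CPM in sh-NC 1 to 3 against 20.9, 20.7, 7.61 CPM in sh-IGF2BP3 1 to 3. Here sh-IGF2BP3 3 lay among the sh-NC values and the other 2 sh-IGF2BP3 libraries at over 2 times the highest of them, for a log2 fold change of 1.10 (SE 0.34, n = 3 per group, adjusted p = 0.117 in edgeR), against 0.49 for RPL21. Of the other copies of RPL21, both named after their values were seen, RPL21P75, another of the 3 members with under 30 counts in sh-NC and with 88.5% of its 50-base runs in RPL21, had a log2 fold change of 1.00, and the diverged RPL21P10, in an intron of ALKBH1, one of -0.05. Without sh-NC 1 or without sh-IGF2BP3 3, RPL21P16 was called (log2 fold changes 1.33 and 1.42, adjusted p = 0.0147 and 0.0350; log2 fold changes of 0.88 to 1.68 and adjusted p of 0.000142 to 0.473 over the 18 alternatives).

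The 60S copies described next are 5 of the 10 most abundant members, with log2 fold changes of -0.25 to 0.21. RPL10P16, next in abundance after those 10 and named after its value was seen, had one of 0.60. RPLP0P6, second in abundance, had a mean of 78.2 ± 18.2 against 90.6 ± 2.35 CPM (SD, n = 3 each), and a log2 fold change of 0.21 beside 0.32 for RPLP0, the stalk protein gene. RPL7P1 had a mean of 68.2 ± 4.68 against 66.7 ± 9.40 CPM (SD, n = 3 each) and RPL7P9 had a mean of 48.4 ± 10.2 against 54.96 ± 8.68 CPM (SD, n = 3 each), with log2 fold changes of -0.03 and 0.18 beside 0.29 for RPL7. Their reading frames are open over the full length of RPL7 and differ from it by 2 and 1 amino acids. RPL24P4 had a mean of 26.5 ± 4.26 against 26.1 ± 4.14 CPM (SD, n = 3 each), with a log2 fold change of -0.02 beside 0.67 for RPL24, and its FPKM was 80.9% of that of RPL24. RPL13AP5 had 52.8, 40.8, 43.7 CPM in sh-NC 1 to 3 against 34.99, 39.5, 41.2 CPM in sh-IGF2BP3 1 to 3, with a log2 fold change of -0.25 beside 0.29 for RPL13A. Per 1000 RPL13A counts it had 48.6, 45.1, 49.02 in sh-NC against 26.96, 31.2, 43.04 in sh-IGF2BP3, so that the groups did not overlap and sh-IGF2BP3 was lower. The signs of the values for RPL7P1 and RPL24P4 turned under 5 alternatives each. Over the 18 alternatives the log2 fold change ran from 0.026 to 0.40 for RPLP0P6, from 0.057 to 0.47 for RPL7P9 and from -0.55 to -0.13 for RPL13AP5.

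RPL6P27 (chr18:6462144-6463030, minus strand) was the most abundant member whose groups did not overlap. It had 22.5, 37.1, 31.7 CPM in sh-NC 1 to 3 against 17.9, 18.7, 21.98 CPM in sh-IGF2BP3 1 to 3, so all sh-IGF2BP3 libraries were below all sh-NC libraries by a small margin, for a log2 fold change of -0.64 (SE 0.23, n = 3 per group, adjusted p = 0.136 in edgeR). RPL6 had a log2 fold change of 0.10. Without sh-NC 1 RPL6P27 was called lower (log2 fold change -0.81, adjusted p = 0.0155; log2 fold changes of -0.90 to -0.46 and adjusted p of 0.00777 to 0.632 over the 18 alternatives). In all, 2 members were higher in every sh-IGF2BP3 library than in any sh-NC library and 11 were lower, or 2.5% and 13.8% of those tested, against 13.2% and 11.0% of all genes. Without sh-NC 1 the counts were 13 and 21 of 80, against 24.7% and 25.3% of all genes. Without sh-IGF2BP3 3 they were 20 and 18 of 80, against 23.8% and 20.1% of all genes. Besides RPL6P27 and RPS10P3, the lower ones were RPLP0P9, RPS10P7, RPSAP19, RPS15P4, RPL7AP62, RPL31P46, RPL28P2, RPS20P22 and RPL37AP1. Of these, RPL37AP1 is 1 of the 8 members with under 30 counts in sh-IGF2BP3 and met the minimum mainly through sh-NC. Each of these 9, named because their groups did not overlap, had under 400 counts. Their log2 fold changes ran from -1.03 in RPL7AP62 to -0.32 in RPLP0P9. The widest gap to a parent was that of RPS15P4, at -0.65 beside 1.08 for the 40S gene RPS15.

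As a ratio to the parent, 17 of the 80 tested members were lower in every sh-IGF2BP3 library and 1, RPL41P1, was higher. For comparison, every tested gene was divided by the summed CPM of the 42 parents. By that ratio 15.8% of all genes were lower in every sh-IGF2BP3 library and 4.3% were higher, and 21 and 2 of the members were. The parents' own levels enter every one of these ratios.

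The RPL7A family, 5 copies of a 60S gene, was the largest. RPL7AP6, RPL7AP62, RPL7AP16, RPL7AP45 and RPL7AP70 had 76 to 937 counts, identities of 81.3% to 98.5% and mean FPKM values of 0.227% to 2.91% of that of RPL7A. Their log2 fold changes ran from -1.03 to 0.03, all below the 0.57 of RPL7A. Averaged over the 80 pairs of member and parent, 77.2% of all genes tested lay below the parent. RPL7AP70 had 17, 21, 15 counts in sh-NC against 8, 1, 14 counts in sh-IGF2BP3. It is 1 of the 8 members with under 30 counts in sh-IGF2BP3, so its direction is not independent of the rule. RPL7AP45 also shares 78.6% of its 30-base runs with another annotated gene that is not a coding gene.

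Per length, most copies were far below their parents. The mean FPKM was a median of 4.94% of that of the parent over the tested members, and ran from 0.0595% to 3076%, with 22 of the 81 under 1%. It had a median of 20.3% in high-sharing, 1.45% in partial-sharing and 4.97% in no-sharing copies. These percentages depend on the gene length behind the authors' FPKM. Recovered from the counts and the FPKM, it was 2119 bases for RPS28 and 210 for RPS28P7, and 2128 for RPL39 and 156 for RPL39P3. The copies above 100% were 6, RPL36AP37 (3076%), RPS28P7, RPS10P3, RPL39P3 (135%), RPL36AP30 (114%) and RPL36AP44 (112%, named for this value). Their parents include some with few counts. RPS10 and RPL36A had the lowest mean CPM of all parents, 4.08 and 9.88, and RPS28 had 39.0. RPL39 had 137 and RPLP0, the highest, 2247. High percentages thus partly reflect low parent counts, and why these parents had few counts was not tested. RPL36AP37 (chr11:16974693-16975013, minus strand), in an intron of PLEKHA7 on the same strand, had 18.7, 27.4, 22.5 CPM in sh-NC against 24.4, 36.2, 18.6 CPM in sh-IGF2BP3. RPL36A had less, 10.05, 8.06, 10.4 CPM in sh-NC against 10.2, 11.1, 9.48 CPM in sh-IGF2BP3. It had a log2 fold change of 0.20, RPL36A 0.11 and PLEKHA7, an adherens junction gene, -0.15, with overlapping groups in each. RPL39P3 (chr6:73373108-73373263, minus strand), in an intron of OOEP, had 11.3, 12.5, 8.99 CPM in sh-NC 1 to 3 against 15.04, 22.8, 10.8 CPM in sh-IGF2BP3 1 to 3, and sh-IGF2BP3 2 was the highest. RPL39 had a mean of 109 ± 8.92 against 164 ± 54.5 CPM (SD, n = 3 each). The log2 fold changes were 0.57 and 0.59, and 0.25 and 0.33 without sh-IGF2BP3 2. Over the 18 alternatives that of RPL39P3 ran from 0.25 to 0.94, and it was called with both close libraries left out (adjusted p = 0.0349 in edgeR; 0.0349 to 0.744 over the 18 alternatives). OOEP, an oocyte gene, had at most 1 count. All 50-base runs of RPL36AP37 and RPL39P3 occur in the parent mRNA.

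**Figure D5:**
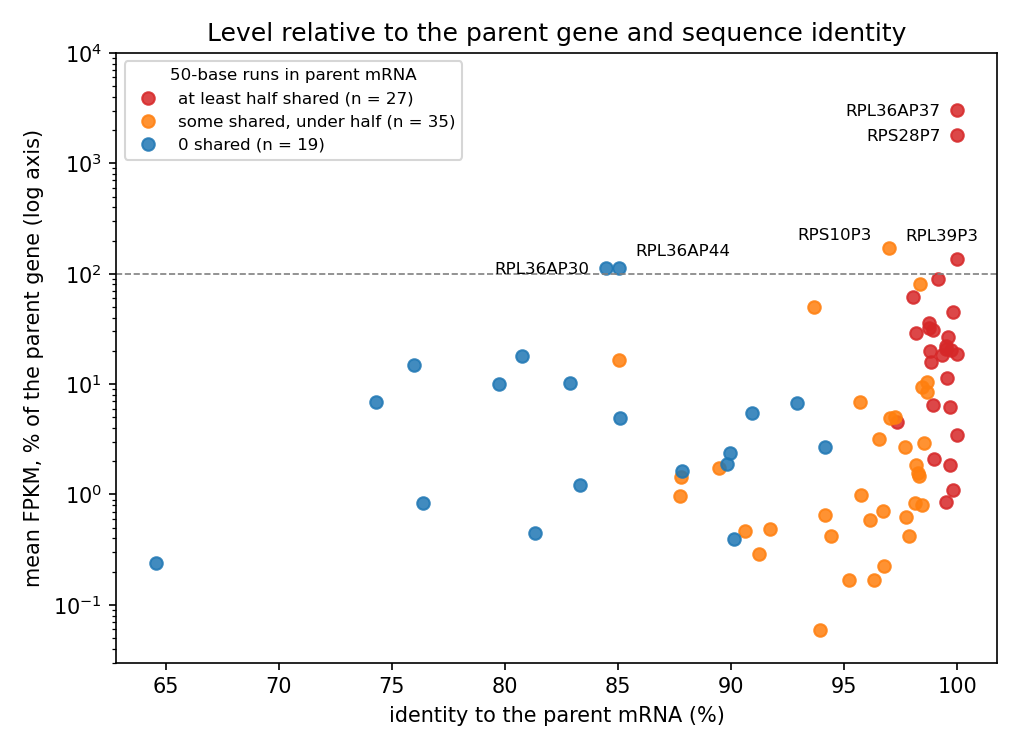
Mean FPKM of each of the 81 pseudogenes as a percentage of that of its parent (log axis) against its identity to the parent mRNA over the part that aligned. Points are coloured by sharing class, with a dashed line at 100%. The 6 named copies lie above the parent, and the no-sharing copies reach from 0.241% to 114%.

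Other annotated genes overlapped many of the copies. On the same strand 22 members overlapped another gene, 17 of them lying wholly in an intron of one, and on the opposite strand 38 did, while 29 overlapped none. The members overlapping a same-strand gene had a median log2 fold change of 0.05 (n = 22) and the others one of -0.08 (n = 58). Strand use in the counting is not given in the sources used here, so reads of a copy and of a gene opposite to it may not be separated.

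By shared 30-base runs, the parent in the symbol was the closest coding gene for 69 of the 81 copies. For 3 others the closest one was a paralog of that parent, and 4 shared no 30-base run with any coding gene. RPL13P5 was closest to LRRC23 (37.8% of its runs, against 0.497% in RPL13) and RPL12P14 to NBEAL1 (39.7%, against 29.7% in RPL12). Comparisons with the parent keep the gene in the symbol for all copies unless stated. RPL26P30 shares no 30-base run with RPL26 but 40.9% with RPL26L1, a closely related 60S gene, to which it is 99.2% identical (644 of 649 aligned bases). RPL26P30 had 0.903, 1.28, 0.817 CPM in sh-NC against 2.17, 2.81, 1.02 CPM in sh-IGF2BP3. RPL26L1 had 21.4, 16.03, 10.1 CPM in sh-NC against 26.5, 37.5, 23.9 CPM in sh-IGF2BP3. RPL26 had 30.4, 27.97, 28.3 CPM in sh-NC against 29.7, 38.4, 29.5 CPM in sh-IGF2BP3. The log2 fold changes were 0.98, 0.89 and 0.17. The copy was thus nearer to RPL26L1, a gene whose sh-IGF2BP3 libraries were all above the sh-NC libraries, than to RPL26. RPL26P29 is 92.9% identical to RPL26L1 and RPL7P57 is 95.4% identical to RPL7L1, a ribosome biogenesis gene, and their log2 fold changes were 0.12 and -0.12, with 0.08 for RPL7L1. These copies were named after their sequences were compared.

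An open reading frame of the parent's full length, from the parent's start codon on, was found in 25 of the 81 copies, of which 4 reach the annotated end without a stop codon. It encoded the parent's exact protein in 6 of them, RPS28P7, RPL36AP37, RPL39P3, RPL21P16, RPL41P1 and RPL9P7. The frame was shorter in 35 copies and longer in 3, 3 had no start codon at the parent's position, and in 15 the parent's start was not aligned. Such frames were found in 19 of the 27 high-sharing, 5 of the 35 partial-sharing and 1 of the 19 no-sharing copies. An intact frame is a feature of the sequence and does not show that a protein is made.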

How the data were processed

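Raw counts and FPKM values for 62710 Ensembl genes in the 6 libraries were deposited by the authors. The libraries held 18483081, 23576469, 17906908 counts (sh-NC 1 to 3) or 17462661, 16146718, 18202601 counts (sh-IGF2BP3 1 to 3). The deposited FPKM values are the counts divided by the library total and by 1 length per gene. The submitters' processing notes name CASAVA and GRCh38. The aligner, the counter, the handling of reads that fit several genes and the use of strand are not given in the sources used here.

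Raw counts were analysed with edgeR 4.0.16 in R 4.3.3 (filterByExpr, TMM, quasi-likelihood test, Benjamini-Hochberg adjustment over the 16753 genes tested, no further term). The thresholds were a fold change of 1.5 and an adjusted p of 0.05. Parents were found by taking P and the number off the symbol. Log2 ratios of member to parent used an added count of 0.5. Transcript sequences and reading frames came from GENCODE 29 and were aligned with Biopython 1.88. All 81 members are annotated there, at the coordinates of the deposited table except for the end of RPL6P27.

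The members, lists and classes were chosen with earlier results of these data known. Named by rule were IGF2BP3, the 10 members with the highest mean CPM, the 8 tested with the smallest p, the 5 with the highest FPKM relative to the parent, families of at least 5 members, the members next to the minimum of 60 counts, and the parents and same-strand host genes of these. The results of 1 of the 10 most abundant members are not reported here. The edgeR script was tested on simulated data. With 3 libraries per group an exact permutation test cannot give a p below 0.1, so none is given. Alternatives were DESeq2 1.42.0, limma 3.58.1 on log2 FPKM with 1 or 0.1 added, other normalizations and filters, other count minimums, a replicate block, GC content and length trends removed, and each library left out.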

Additional observations from a re-analysis of the deposited data

How the results depend on the processing

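Counts under 200 in 40 of the 81 pseudogenes and 3 libraries per group limit single values, and reads that fit a copy and its parent cannot be separated here. The median difference from the parent was below 0 and that of the parents above 0 under every alternative run. That of the members was near 0, and was -0.16 without sh-IGF2BP3 replicate 3 and -0.10 with limma on log2(FPKM + 1) and no filter.

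Against 0 members called higher and 0 lower, DESeq2 called 3 higher, and 5 higher and 1 lower were called without a filter on low counts. With both sh-NC 1 and sh-IGF2BP3 3 left out, 11 were called higher and 6 lower. At an unadjusted p under 0.05, 14 of 78 were then higher and 13 lower (background 20.4% and 16.1%). In that setting 27 were higher and 27 lower without overlap (background 31.2% and 32.4%), and the median difference from the parent was -0.70. The cause was not tested. Limma on log2(FPKM + 1) without a filter gave 5 of 81 members higher and 8 lower at an unadjusted p under 0.05 (background 4.9% and 5.61%). With single libraries left out, 0 to 7 members were called higher and 0 to 3 lower, 5 to 13 were higher and 1 to 14 lower at an unadjusted p under 0.05 (background 7.02% to 17.7% and 3.81% to 14.2%), and 3 to 20 were higher and 13 to 21 lower without overlap (background 15.2% to 24.7% and 13.5% to 25.3%), with medians of -0.16 to 0.054 for members, 0.29 to 0.57 for parents and -0.64 to -0.28 for the difference. Leaving out a library alone makes overlap less likely. Of 41 tested members with at least 200 counts 0 were higher without overlap and 5 lower, and of 58 overlapping no same-strand gene 1 was higher and 9 lower (background 13.2% and 11.0% of all genes).

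Per 1000 parent counts the mean was 43.6 in sh-NC and 41.4 in sh-IGF2BP3. It was 40.7 and 38.2 at a minimum of 30 counts, 53.1 and 51.3 at 200, 37.8 and 35.9 without the members overlapping a same-strand gene, and 238 and 232 with FPKM in place of counts. The direction was the same in each. Leaving out 1 library gave 43.1 to 44.0 in sh-NC and 41.0 to 41.8 in sh-IGF2BP3. Every member has a parent in the table, so the alternative without such members is the same as the result. With the closest coding gene as parent for RPL26P29, RPL26P30 and RPL7P57, chosen after the sequences were compared, the median difference remained below 0.

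The series' text speaks of pairs, but same-numbered libraries did not deviate together (correlations of -0.28, -0.19 and -0.04). A replicate block left 0 members called in either direction, with 9 higher and 1 lower of 80 at an unadjusted p under 0.05 (background 12.6% and 6.92%) and a median difference from the parent of -0.44. With the GC content and length trends removed as well, these were 8, 9 (background 5.12% and 1.94%) and -0.47.

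Of the named genes' values, 551 of 626 kept their sign and their side of the threshold under an alternative, 50 kept the sign and passed it, and 25 turned sign. RPL7P1 was at -0.12 to 0.060 with single libraries left out (above 0 without sh-NC replicate 2 or sh-IGF2BP3 replicate 3), at 0.053 with both close libraries left out, and at 0.11 and 0.094 once trends with GC content and length were removed, without and with the block. RPL24P4 was at -0.15 to 0.12 with single libraries left out (above 0 without sh-NC replicate 2, sh-IGF2BP3 replicate 1 or sh-IGF2BP3 replicate 3) and at 0.0020 and 0.011 after the same removal. That removal gave -0.18 and -0.23 for RPS2P46 and -0.077 and -0.076 for RPS28. With single libraries left out, RPL36AP37 was at -0.085 to 0.39 (below 0 without sh-IGF2BP3 replicate 2), RPL6 at -0.015 to 0.20 (below 0 without sh-NC replicate 3) and RPS10 at -0.10 to 0.18 (below 0 without sh-NC replicate 3, sh-IGF2BP3 replicate 1 or sh-IGF2BP3 replicate 3). RPS10 was also at -0.037 with upper-quartile normalization, -0.0032 with the block, -0.057 with both close libraries left out, and -0.046, -0.077 and -0.046 in the 3 limma settings.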

Other observations

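Below the minimum of 60 counts lay another 589 ribosomal protein pseudogenes with at least 1 count. Their counts summed to 5317 over the 6 libraries, with a median of 5 each. Scaled to the library total, they made up 49.2, 50.4, 64.7 CPM of sh-NC 1 to 3 against 34.4, 39.8, 44.9 CPM of sh-IGF2BP3 1 to 3, so that the groups did not overlap and the sh-IGF2BP3 libraries were lower, while the 81 pseudogenes above the minimum took a larger share of sh-IGF2BP3 1 and 2 than of any sh-NC library. Processed pseudogenes of other genes also took a lower share of every sh-IGF2BP3 library than of any sh-NC library, by a small margin. Their lowest sh-NC share was 0.2733% (sh-NC 1) and their highest sh-IGF2BP3 share 0.2703% (sh-IGF2BP3 2). A lower share was thus not particular to the ribosomal protein pseudogenes below the minimum. The share of the 589 was seen after the members had been described, and the difference between groups was not tested.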
